A study of Rattus norvegicus with 20 samples.

Results

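The genes described here are 44 rat genes of the Wnt pathway, namely the Wnt ligands, their Frizzled (Fzd) and Lrp receptors, the R-spondins with their Lgr receptors, the secreted antagonists of the Sfrp and Dkk families with Wif1, and the intracellular members Axin1, Axin2 and Tcf7. They were chosen by symbol, as the probe sets that carry exactly 1 gene symbol and whose symbol names a numbered Wnt, Fzd, Sfrp, Dkk, Lgr, Rspo or Axin gene, or Wif1, Tcf7, Lrp5 or Lrp6. Each had 1 probe set, and they are 44 of the 14506 genes and of the 29215 probe sets measured. By role they are 17 ligands, 10 receptors and co-receptors, 5 R-spondins and Lgr receptors, 9 antagonists and 3 intracellular members.

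Expression was measured on 20 Affymetrix Rat Gene arrays of epithelial cells grown from 5 hairless sites: the oral mucosa, the vagina, the esophagus, the footpad and the trachea. All cells came from Sprague-Dawley rats at postnatal day 200 of the line SDTgN (act-EGFP)obsCZ-004, the green rat CZ-004, in which the enhanced green fluorescent protein (EGFP) is made constitutively. In each tissue 2 arrays held cells cultured before transplantation and 2 arrays held cells cultured again after a first transplantation into skin. For the latter, the cells had been injected into newborn mouse skin that was grafted onto the back of athymic mice, which lack a thymus, and were recovered months later. At both stages the cells grew on irradiated mouse 3T3-J2 fibroblasts and were sorted on EGFP. The sort selects EGFP-bearing rat cells over mouse cells, and would keep any other rat cells. How pure the sorted cells were is not stated in the sources used here. How many rats gave the tissues is not stated in the sources used here. Duplicates were parallel cultures, so the p-values rest on the spread between cultures and not between animals or grafts. Values are log2 RMA values, in which a difference of 1 is a 2-fold difference.

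Wnt proteins are secreted lipid-bearing ligands that bind a Frizzled receptor together with the co-receptor Lrp5 or Lrp6. Binding stops a complex built on Axin from marking β-catenin for destruction, and β-catenin then enters the nucleus and acts with transcription factors of the TCF/LEF family, to which Tcf7 belongs. Other Wnt proteins, of which Wnt5a is the best known, act mainly without β-catenin, on cell polarity and movement. In skin the pathway is known for its part in placing and forming hair follicles, and Wnt10a is among the ligands made early in the follicle epithelium of the mouse. R-spondins bind Lgr receptors and keep Frizzled at the cell surface. By contrast, Sfrp proteins and Wif1 bind Wnt ligands outside the cell, and some Dkk proteins, such as Dkk1, act on Lrp5 and Lrp6.

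After transplantation 8 of the 44 genes passed limma's test in at least 1 tissue, with an adjusted p under 0.05 over all probe sets and a fold over 2. The ligands Wnt5a, Wnt4 and Wnt7b and the antagonists Sfrp1 and Sfrp2 fell, and the ligand Wnt10a, the R-spondin receptor Lgr4 and the antagonist Wif1 rose. None moved in both directions. The other 36 genes passed in no tissue. The share of all probe sets passing in at least 1 tissue was not counted, so the 8 genes are not set against a background. Shares for each tissue follow below. Only Sfrp1, Wnt7b and Wnt10a passed in more than 1 tissue, and no gene passed in trachea. In footpad 7 genes passed, 4 lower and 3 higher, with a 13.9-fold fall of Wnt5a and a 10.8-fold rise of Lgr4.

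**Figure D1:**
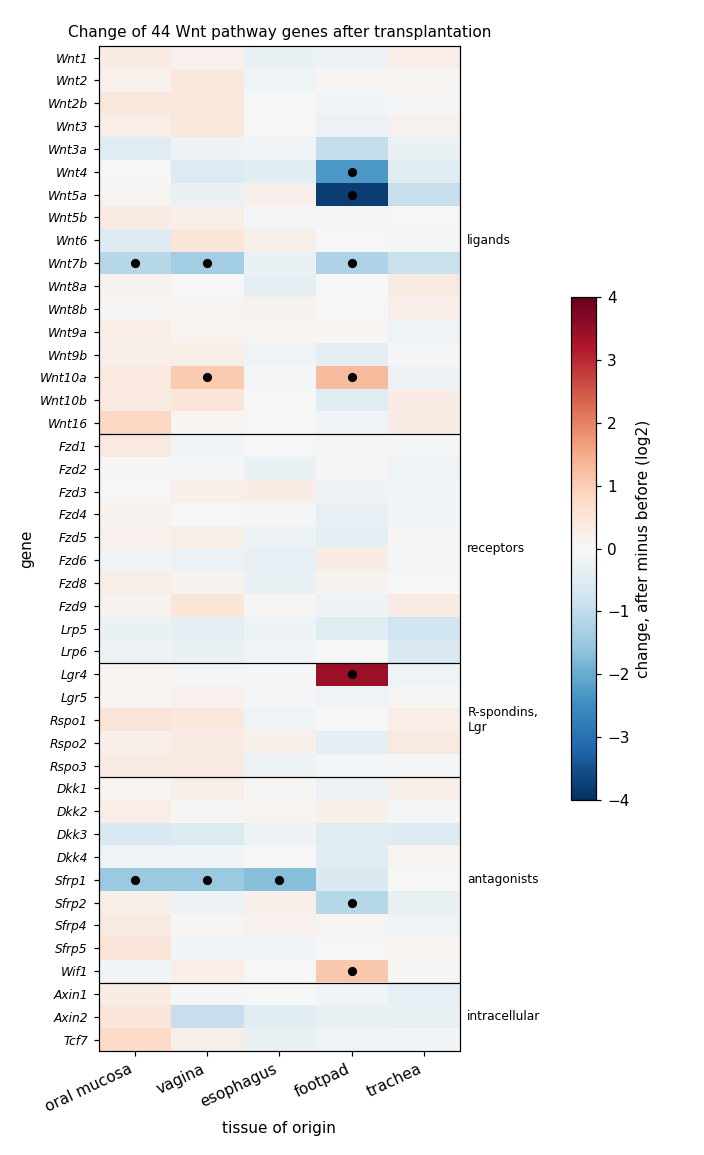
Change after transplantation (after minus before, log2 scale, color bar) of the 44 genes (rows, grouped by role) in cells of 5 tissues (columns), with a black dot on changes that passed limma's test (adjusted p under 0.05, fold over 2). The 13 dots fall on 8 genes and 7 of them lie in the footpad column, which holds the darkest cells, Wnt5a at −3.80 and Lgr4 at 3.43.

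Against the whole array, the number of genes passing was close to the background in some tissues and above it in others. The 44 genes all have exactly 1 symbol, whereas the background takes in all 29215 probe sets, of which 15310 do. The share among those 15310 alone was not counted, so the background is not matched to the 44 genes. In oral mucosa 2 of 44 genes passed (4.55%), where 3.65% of all probe sets did. Both were lower, with 2.15% of all probe sets lower and 1.5% higher. In esophagus 1 passed (2.27%), where 1.07% of all probe sets did, and it was lower, with 0.558% of all lower and 0.517% higher. In trachea 0 passed, where 1.38% of all probe sets did (0.883% lower and 0.496% higher). In vagina 3 passed (6.82%), where 2.21% of all probe sets did. Of these 2 were lower and 1 higher, with 1.68% of all lower and 0.534% higher. In footpad 7 passed (15.9%), where 6.92% of all probe sets did. Of these 4 were lower and 3 higher, with 2.64% of all lower and 4.28% higher. The median change of the 44 genes was small and lay near that of all probe sets, at 0.16 against 0.05 in oral mucosa, 0.08 against 0.06 in vagina, −0.06 against −0.01 in esophagus, −0.13 against −0.03 in footpad and −0.05 against 0.01 in trachea.

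Several of these genes were listed at low values. The file gives no detection call, and 13 of the 44 genes had a mean below 4.77, the 40th percentile of all probe sets, among them 5 of the 9 antagonists and 3 of the 5 R-spondins and Lgr receptors. The antagonist Sfrp2 was 1 of these 13, and Wif1 lay just above that level with a mean of 4.78. Changes of such genes rest on dim signals.

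The cells were checked against markers of their labels. Of the 9 markers of tissue of origin measured, 2 fell in oral mucosa and 2 in esophagus. In vagina 2 rose and 3 fell, in footpad 2 rose, and in trachea 0 passed. The shares of all probe sets that passed are given above for each tissue. Krt4 and Krt13, keratins listed for lining mucosa, are among the 9. Their values are not given here, so the labels of oral mucosa and esophagus were not checked by single markers. The 6 genes measured from the basal keratinocyte list, Krt14, Tp63 and Epcam among them, had mean levels of 10.7 to 11.2 on every array. Krt1 and Krt10, keratins of cornified epidermis, were highest in footpad at both stages. Krt9, a keratin of palm and sole epidermis, lay between 4.66 and 5.22 in every group, footpad included. Nkx2-1, a transcription factor of the airway, was highest in trachea, but at 6.71 before and 6.67 after it lay close to the 6.45 of oral mucosa after. In vagina Pax8, known in the genital tract, went from 7.52 to 4.73, while Hoxa11 went from 5.03 to 6.63 and Hoxd13 from 4.75 to 6.58. Markers of endothelium, leukocytes and melanocytes were low, with at least 4 of 5, 4 of 5 and 2 of 2 measured markers below 4.77 in every group. Fibroblast markers were not low in every group, and their values stand beside the ligands below.

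The RefSeq promoter table of the GRCr8 assembly held 28 of the 44 genes. Over the 250 bases before the start, the median GC content was 64.2% for these 28 and 51.2% for all 33469 promoters, with a median of 21 against 5 CG dinucleotides. The TCF/LEF core, searched as CTTTGAT and, on the other strand, ATCAAAG, occurred in 3.15% of all promoters and in 1 of the 28, that of Axin2, where it begins 132 bases before the start. Axin2 was singled out here after its values were seen. The windows of Wnt5a (chr16:3703415-3703664, plus strand) and Axin2 (chr10:94398535-94398784, plus strand) lie inside the span of their genes as the gene table gives it, and are not printed. Those of Lgr4 (chr3:116901718-116901967, plus strand), the gene of the 44 that rose most in footpad, and Wnt10a (chr9:83798344-83798593, plus strand), the ligand that rose, lie just before the gene and are printed to show the regions behind 2 of the genes that the results turn on. Neither holds the core on either strand, so no letter is in capitals.
Lgr4: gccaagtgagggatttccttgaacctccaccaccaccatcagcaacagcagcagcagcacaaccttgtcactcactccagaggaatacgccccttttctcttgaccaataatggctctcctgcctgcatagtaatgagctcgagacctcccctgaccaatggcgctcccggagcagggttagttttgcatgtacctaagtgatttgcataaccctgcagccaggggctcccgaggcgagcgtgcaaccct
Wnt10a: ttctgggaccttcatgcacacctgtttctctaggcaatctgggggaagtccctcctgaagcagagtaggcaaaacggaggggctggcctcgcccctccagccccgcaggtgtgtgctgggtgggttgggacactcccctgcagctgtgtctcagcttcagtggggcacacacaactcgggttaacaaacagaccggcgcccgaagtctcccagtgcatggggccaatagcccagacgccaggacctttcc
The Lgr4 window had a GC content of 55.2% and 7 CG dinucleotides, and that of Wnt10a 61.2% and 8, both with fewer CG dinucleotides than the median of the 28.

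Wnt5a, the main ligand of the branch without β-catenin, showed the largest change of the 44 genes. In footpad its log2 value went from 9.71 and 9.78 before to 6.06 and 5.83 after transplantation. In trachea it went from 8.57 and 8.50 to 7.49 and 7.72. Both pairs after lay well below both pairs before, and footpad, the highest of the 5 tissues before, was the lowest after. The change was −3.80 ± 0.11 (SE) in footpad (adjusted p = 4.75e-11) and −0.93 ± 0.11 in trachea (adjusted p = 0.000116), the latter 1.91-fold and short of the fold threshold. In oral mucosa the values were 9.09 and 8.87 before and 9.19 and 8.99 after. In esophagus they were 8.93 and 8.75 before and 9.03 and 9.08 after. In vagina they were 8.67 and 8.77 before and 8.48 and 8.40 after. These 3 tissues stayed within a narrow band, the arrays of oral mucosa overlapped between the stages, and their changes of 0.11, 0.21 and −0.28, each ± 0.11, had adjusted p-values of 0.536, 0.29 and 0.0999.

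The response of Wnt5a differed between tissues (F test over the differences of response, adjusted p = 1.84e-09), and still did with the footpad arrays left out (adjusted p = 0.000971). Set against the mean response of the other 4 tissues, that of footpad was −3.58 ± 0.13 (adjusted p = 1.81e-10). The same contrast gave 1.31 ± 0.13 for oral mucosa and 1.44 ± 0.13 for esophagus, whose own changes were 0.11 and 0.21, and the footpad is among the other 4 there. Before transplantation Wnt5a already differed among the tissues (F test, adjusted p = 1.2e-05), over a range of 1.21 between footpad and trachea. After it this range was 3.14, between oral mucosa and footpad (adjusted p = 4.41e-10).

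Fibroblasts also make Wnt5a, and fibroblast markers moved in the same tissues. Of 17 such markers measured, 10 fell in footpad, 8 in trachea and 9 in vagina, 3 rose in oral mucosa, and none passed the test in esophagus. Their mean log2 level was 7.35 to 7.42 on the footpad arrays before and 6.10 to 6.12 after. In trachea it was 7.31 to 7.43 before and 6.18 to 6.27 after, and in vagina 7.21 to 7.32 before and 5.97 to 6.00 after. The arrays of oral mucosa and esophagus were already as low before, at 6.00 to 6.11 and 5.91 to 6.08, and lay at 6.61 to 6.62 and 5.98 to 6.00 after. Among the single markers the collagen Col1a1 changed by −1.88 in footpad, −2.46 in trachea and −2.39 in vagina, and the matrix proteoglycan Dcn by −3.43, −1.23 and −2.06. The median change of the 17 markers was −1.31 in footpad, −0.89 in trachea and −1.05 in vagina, where Wnt5a moved by −0.28. Oral mucosa and esophagus, with the low marker levels before, had Wnt5a at 8.75 to 9.09. In bulk RNA fewer cells of a type and less RNA per cell cannot be told apart. The part of fibroblasts in the fall of Wnt5a, whether of the rat or of the mouse feeder layer, was not tested.

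**Figure D2:**
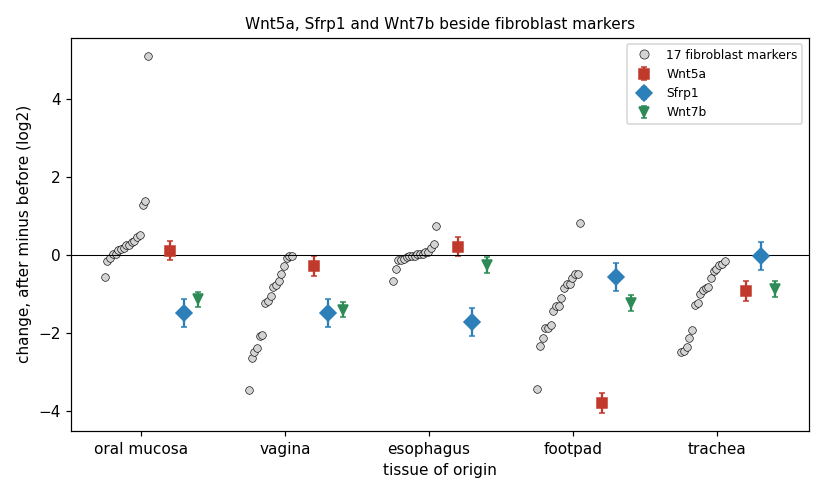
Change after transplantation (after minus before, log2 scale) of 17 fibroblast markers (grey circles, sorted within each tissue) and of Wnt5a, Sfrp1 and Wnt7b (colored symbols, bars are 95% confidence intervals of limma's fit) in the 5 tissues. Many markers lie below 0 in vagina, footpad and trachea, whereas Wnt5a is far below 0 in footpad alone (−3.80) and Sfrp1 is lowest in esophagus (−1.71), where no marker passed the test.

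Wnt4, a ligand of the epidermis and of the genital tract, was also lowest in recovered footpad cells. There it went from 9.59 and 9.67 to 7.29 and 7.40, a change of −2.29 ± 0.10 (adjusted p = 8.19e-10). In vagina it went from 9.74 and 9.63 to 9.21 and 9.05, in esophagus from 9.87 and 9.86 to 9.47 and 9.41, and in trachea from 9.72 and 9.81 to 9.35 and 9.30. Arrays after lay below arrays before in these 4 tissues, and the changes of −0.55, −0.43 and −0.44 outside footpad passed the adjusted p (0.00123, 0.00963 and 0.00772) but not the fold. In oral mucosa the arrays overlapped, with 9.19 and 8.98 before and 9.16 and 8.97 after. The response differed between tissues (adjusted p = 1.38e-07), and that of footpad minus the mean of the other 4 was −1.93 ± 0.11 (adjusted p = 1.27e-08). Without the footpad arrays Wnt4 was not among the genes whose response differed.

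Wnt7b, an epithelial ligand that acts through β-catenin, was lower after transplantation on every array of every tissue. In oral mucosa it went from 10.12 and 10.12 to 8.87 and 9.11. In vagina it went from 10.29 and 10.40 to 8.96 and 8.93. In footpad it went from 9.77 and 9.84 to 8.46 and 8.68. These 3 changes, of −1.13, −1.40 and −1.24, each ± 0.09, passed the test (adjusted p = 7.17e-07, 1.74e-07 and 1.63e-07). In trachea both arrays stood at 10.57 before and at 9.69 after, a change of −0.88 ± 0.09 (adjusted p = 3.26e-05) that was under 2-fold. In esophagus the values were 9.99 and 9.98 before and 9.72 and 9.73 after, a change of −0.26 ± 0.09 that did not pass (adjusted p = 0.0879). The size of the change thus differed between tissues (adjusted p = 6.13e-05, and 0.000216 without footpad), while its direction did not.

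Only Wnt7b and the co-receptor gene Lrp5, 2 of the 44 genes (4.55%), had every array after below every array before in all 5 tissues. Over all probe sets 1.57% had this pattern, and 0.688% had the opposite pattern, which none of the 44 genes showed. Averaged over the 5 tissues, with the spread between tissues as the error, Wnt7b changed by −0.98 ± 0.17 (unadjusted p = 0.000726, adjusted p = 0.302). No probe set on the array passed the adjusted p and the 2-fold threshold in this limma fit, where 0% were called. At an unadjusted p under 0.05 there were 6 of 44 genes (13.6%) and 11.2% of all probe sets. The 6 were Wnt7b, Dkk3, Lrp5, Lrp6, Sfrp1 and Wnt3a, all lower after transplantation.

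Wnt10a rose in 2 tissues. In vagina it went from 7.39 and 7.33 to 8.30 and 8.51, a change of 1.05 ± 0.10 (adjusted p = 4.38e-06). In footpad it went from 7.82 and 7.66 to 9.01 and 8.99, a change of 1.25 ± 0.10 (adjusted p = 2.14e-07). Vagina had the lowest Wnt10a of the 5 tissues before, and footpad had the highest after. The rise in vagina was 2.07-fold, just over the threshold, and the change was 0.98 with each array centered on its median and 0.94 without the second recovered vagina array. In oral mucosa the values were 8.02 and 8.01 before and 8.42 and 8.38 after, a change of 0.39 ± 0.10 that passed the adjusted p (0.00988) but not the fold. In esophagus they were 8.65 and 8.69 before and 8.53 and 8.66 after, and in trachea 8.25 and 8.09 before and 8.04 and 7.87 after. The arrays of esophagus overlapped, and those of trachea were lower after by 0.22 ± 0.10 (adjusted p = 0.171). The response differed between tissues (adjusted p = 2.16e-06, and 0.000161 without footpad).

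**Figure D3:**
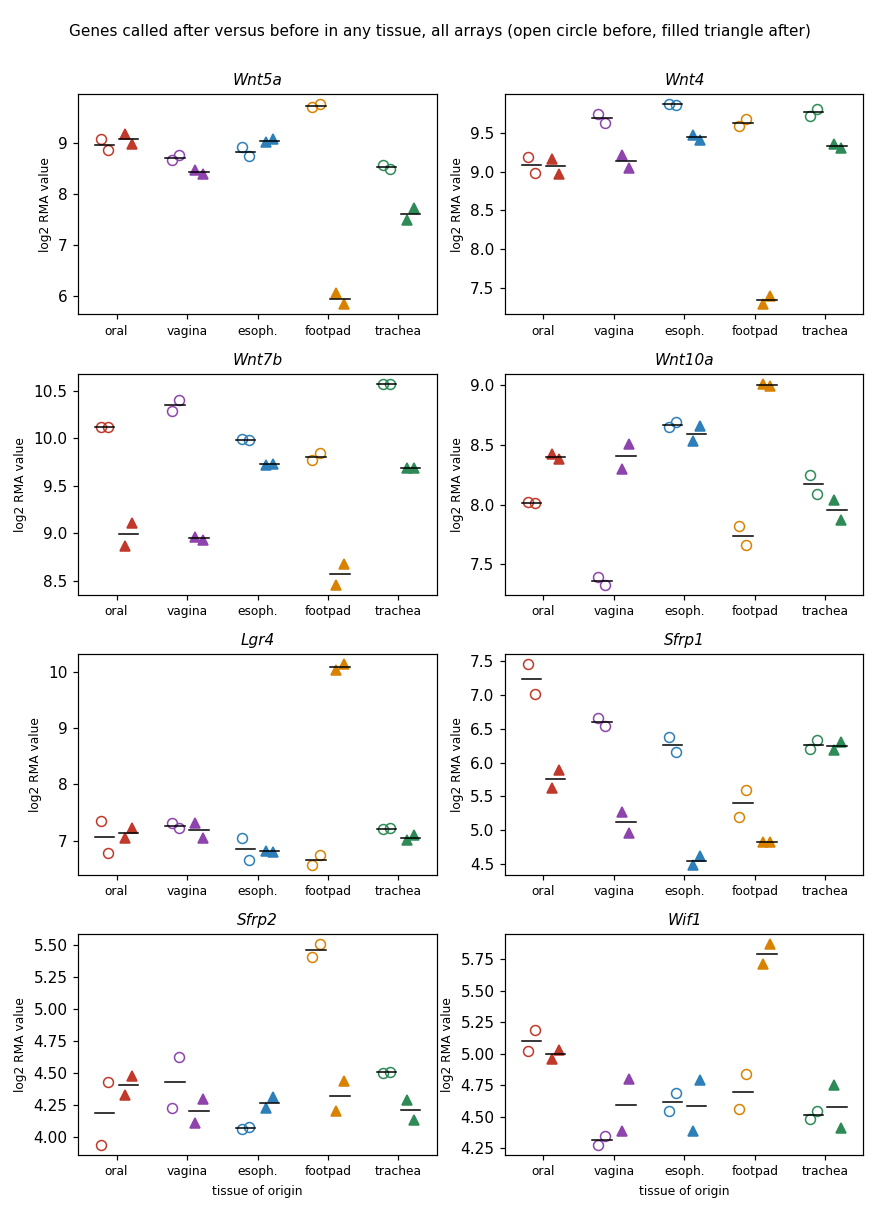
Log2 RMA value of each array for the 8 genes that passed limma's test after versus before in any tissue, with open circles before, filled triangles after, 1 color per tissue and a bar at the mean of the 2 arrays (the vertical axis differs between panels and does not start at 0). Wnt5a and Wnt4 drop and Lgr4 climbs in footpad away from the other tissues, whereas Wnt7b is lower after in all 5 tissues.

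The other 13 ligands did not pass in any tissue, with changes from −0.96 for Wnt3a in footpad to 0.82 for Wnt16 in oral mucosa. Wnt3a, a ligand that acts through β-catenin, went from 6.77 and 6.76 to 5.72 and 5.91 in footpad (−0.96 ± 0.17, adjusted p = 0.000398), a 1.94-fold difference. Wnt16, a ligand known in skin keratinocytes, went from 4.38 and 4.81 to 5.40 and 5.42 in oral mucosa (0.82 ± 0.17, adjusted p = 0.00329), from dim values. Both pairs were separate, and both changes stayed under the fold threshold. Wnt6, an epidermal ligand, moved in opposite directions in 2 tissues, by −0.52 ± 0.14 in oral mucosa (adjusted p = 0.018) and 0.49 ± 0.14 in vagina (adjusted p = 0.0269), and its response differed between tissues (adjusted p = 0.0107).

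Some of the ligand genes neighbor each other on a chromosome. In the RefSeq genes of GRCr8, 3 pairs of the 44 genes had no gene between them, Wnt6 with Wnt10a, Wnt3a with Wnt9a, and Wnt9b with Wnt3, and Wnt10b and Wnt1 had 1 gene between them. The values of 2 of these pairs parted in some tissues. In footpad Wnt10a rose by 1.25 while Wnt6 moved by 0.01, and in oral mucosa Wnt6 moved by −0.52 and Wnt10a by 0.39. In footpad Wnt3a moved by −0.96 (adjusted p = 0.000398) and Wnt9a by 0.07. In oral mucosa Wnt3a moved by −0.48 and Wnt9a by 0.27, with adjusted p-values of 0.0542 and 0.381. Wnt10b and Wnt1 had changes of the same sign in all 5 tissues, of 0.37 and 0.29 in oral mucosa, 0.48 and 0.17 in vagina, −0.01 and −0.28 in esophagus, −0.48 and −0.19 in footpad, and 0.29 and 0.27 in trachea, none of which passed. The pair Wnt9b and Wnt3 stayed within 0.46 of 0 in every tissue.

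None of the 10 receptor genes passed the test in any tissue. Their changes ran from −0.80 for Lrp5 in trachea to 0.49 for Fzd9 in vagina. Among the Frizzled genes, which encode the receptors that hold the ligand, Fzd6 had group means of 9.93 to 10.4 and changed by −0.32 in esophagus and 0.31 in footpad. Fzd2 had group means of 7.53 to 8.09. Fzd3 and Fzd4 were below the level of 4.77 on average. The co-receptor Lrp5 went from 7.86 and 7.70 to 7.06 and 6.90 in trachea, −0.80 ± 0.11 (adjusted p = 0.000206), and changed by −0.47 in footpad (adjusted p = 0.00334) and −0.39 in vagina (adjusted p = 0.019). Its partner Lrp6 went from 8.54 and 8.47 to 7.91 and 7.94 in trachea, −0.58 ± 0.11 (adjusted p = 0.0021). In trachea both co-receptors thus lay lower on both recovered arrays, each by less than 2-fold. Among the recovered cells Lrp5 differed over a range of 0.70, from trachea to oral mucosa (F test, adjusted p = 0.000453), and Fzd3 over 0.58, from oral mucosa to esophagus (adjusted p = 0.00065).

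Trachea, where no gene passed both thresholds, still had 6 of 44 genes past the adjusted p alone (13.6%, where 15.1% of all probe sets were), and 10 with an unadjusted p under 0.05 (22.7%, against 26%). Besides Wnt5a, Wnt7b, Wnt4, Lrp5 and Lrp6, which were lower, Wnt8a was higher by 0.35 ± 0.09 (adjusted p = 0.0209), at group means of 3.26 to 3.76 over all groups.

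Lgr4, a receptor for R-spondins, rose in footpad alone. There it went from 6.57 and 6.75 to 10.04 and 10.15, a change of 3.43 ± 0.17 (adjusted p = 2.35e-09). In oral mucosa it was 7.34 and 6.77 before and 7.04 and 7.22 after, and in vagina 7.31 and 7.22 before and 7.31 and 7.05 after. In esophagus it was 7.05 and 6.66 before and 6.81 and 6.80 after, and in trachea 7.20 and 7.22 before and 7.01 and 7.09 after. Outside footpad all 16 arrays lay between 6.66 and 7.34 and the changes ran from −0.16 to 0.08, with the arrays overlapping between stages in all but trachea. The response differed between tissues (adjusted p = 9.48e-08), and that of footpad minus the mean of the other 4 was 3.48 ± 0.19 (adjusted p = 6.74e-09). Before transplantation footpad had the lowest Lgr4 of the 5 tissues, over a range of 0.60, and after it the highest, over a range of 3.29 (F test, adjusted p = 8.24e-09). Without the footpad arrays Lgr4 was not among the genes whose response differed.

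The same footpad arrays stood apart in other genes. The adhesion molecule Epcam, which was placed on the list of basal keratinocyte markers, rose from 7.77 to 10.8 there (3.00 ± 0.09, adjusted p = 6.62e-11). No other gene of that list passed in any tissue, and the median change of the list in footpad was −0.12. The rise of Epcam is therefore not read as a gain of basal markers. Of 8 cell cycle genes measured, 5 fell in footpad, 3 fell in trachea, 7 rose in oral mucosa and 1 rose in esophagus. Their part in the changes of Lgr4, Wnt4 and Wnt5a was not tested.

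The other 4 genes of this group, Lgr5, a receptor that marks stem cells of the hair follicle in the mouse, and the R-spondins Rspo1, Rspo2 and Rspo3, did not pass in any tissue. Their changes ran from −0.39 for Rspo2 in footpad to 0.51 for Rspo1 in oral mucosa. Lgr5 had group means of 3.78 to 4.35, Rspo2 of 4.15 to 4.75 and Rspo3 of 3.21 to 3.80, all below 4.77, and Rspo1 of 5.67 to 6.30.

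Sfrp1, a secreted antagonist that binds Wnt ligands, fell past both thresholds in 3 tissues. In oral mucosa it went from 7.46 and 7.01 to 5.62 and 5.89, a change of −1.48 ± 0.17 (adjusted p = 1.49e-05). In vagina it went from 6.66 and 6.54 to 5.27 and 4.96, a change of −1.49 ± 0.17 (adjusted p = 2.32e-05). In esophagus it went from 6.38 and 6.15 to 4.49 and 4.61, a change of −1.71 ± 0.17 (adjusted p = 1.99e-05). The arrays of the 2 stages were apart by over 1 on the log2 scale in each of these tissues. In footpad, the lowest of the 5 tissues before, it went from 5.20 and 5.60 to 4.82 and 4.83, a change of −0.57 ± 0.17 that passed the adjusted p (0.0152) but not the fold. In trachea it stood at 6.20 and 6.33 before and 6.19 and 6.30 after, and the arrays overlapped (−0.02 ± 0.17, adjusted p = 0.961). The response differed between tissues (adjusted p = 0.000145, and 0.00054 without footpad), and that of trachea minus the mean of the other 4 was 1.29 ± 0.18 (adjusted p = 0.00037). Beside these changes in Sfrp1, fibroblast markers fell in vagina (9 of 17), footpad (10) and trachea (8), 3 rose in oral mucosa and none passed in esophagus. The median change of the 8 cell cycle genes was 1.77 in oral mucosa, 0.49 in vagina and 0.47 in esophagus. In these 3 tissues Sfrp1 passed both thresholds. The median was −1.24 in footpad, where Sfrp1 changed by −0.57, and −0.77 in trachea. The part of either in the change of Sfrp1 was not tested.

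Before transplantation Sfrp1 stood higher in oral mucosa than in the mean of the other 4 tissues, by 1.10 ± 0.13 (adjusted p = 1.74e-05), and lower in footpad, by 1.19 ± 0.13 (adjusted p = 1.25e-05). After it Sfrp1 stood higher in trachea, by 1.19 ± 0.13 (adjusted p = 1.71e-05). The range among tissues was 1.84 before (adjusted p = 1.4e-05) and 1.70 after (adjusted p = 6.08e-06), with oral mucosa highest before and trachea highest after.

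Sfrp2, a relative of Sfrp1, and Wif1, which also binds Wnt ligands, changed in footpad in opposite directions. Sfrp2 went from 5.41 and 5.51 to 4.20 and 4.44 there, a change of −1.14 ± 0.16 (adjusted p = 5.3e-05). Wif1 went from 4.56 and 4.84 to 5.71 and 5.87, a change of 1.09 ± 0.16 (adjusted p = 0.000109). The footpad pair before was above all other arrays for Sfrp2, whose remaining 18 arrays lay between 3.94 and 4.63, and the footpad pair after was above all other arrays for Wif1, whose remaining 18 arrays lay between 4.28 and 5.19. In the other tissues the changes ran from −0.29 to 0.22 for Sfrp2 and from −0.11 to 0.28 for Wif1. The rise of Wif1 was 2.13-fold, and the change was 0.95 without the first footpad array before transplantation. The fall of Sfrp2, known as a fibroblast product, went with the fall of 10 of 17 fibroblast markers in footpad, and the part of fibroblasts in it was not tested.

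The other 6 antagonists, Dkk1, Dkk2, Dkk3, Dkk4, Sfrp4 and Sfrp5, did not pass in any tissue, with changes from −0.62 to 0.52, both in oral mucosa. The first of these was Dkk3, which was lower after in every tissue, by 0.20 to 0.62, with the arrays overlapping in esophagus and values between 3.93 and 5.27. Averaged over the tissues, Dkk3 changed by −0.47 in the limma fit of group means (unadjusted p = 0.000994, adjusted p = 0.302). Its mean over all arrays was 4.56, below the 40th percentile of all probe sets. Dkk1, the best known inhibitor of Lrp5 and Lrp6, had group means of 4.39 to 4.83 and changes of −0.23 to 0.24.

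The intracellular genes did not pass in any tissue. Axin2, a part of the β-catenin destruction complex that is itself switched on by the pathway, went from 7.29 and 7.03 to 6.32 and 6.16 in vagina, a change of −0.92 ± 0.14 (adjusted p = 0.000276) that was 1.90-fold. In oral mucosa it went from 6.25 and 5.93 to 6.63 and 6.53, a change of 0.49 ± 0.14 (adjusted p = 0.02). The pairs were separate in both tissues and moved in opposite directions, and the response differed between tissues (adjusted p = 0.000641, and 0.00239 without footpad). In esophagus, footpad and trachea Axin2 was lower after by 0.42, 0.29 and 0.31, with adjusted p-values of 0.0584, 0.126 and 0.157. Vagina had the highest Axin2 of the tissues before and oral mucosa the lowest, over a range of 1.07 (F test, adjusted p = 0.000399), and after transplantation the range was 0.51 (adjusted p = 0.0682). Tcf7 went from 5.08 and 5.02 to 5.79 and 5.81 in oral mucosa, a change of 0.75 ± 0.16 (adjusted p = 0.00326), and its response differed between tissues (adjusted p = 0.00985). Axin1, a relative of Axin2, changed by −0.33 to 0.31.

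Over the 3 tests that span the tissues, 11 of 44 genes (25%) differed in response between tissues, where 18.5% of all probe sets did, with an adjusted p under 0.05 and a largest difference over 1. Before transplantation 5 genes differed among the tissues (11.4%), where 9.05% of all probe sets did, and after it 7 differed (15.9%), where 11.9% did. The 5 before were Wnt10a, Wnt5a, Sfrp1, Sfrp2 and Axin2, and the 7 after were Wnt5a, Wnt4, Lgr4, Wnt7b, Sfrp1, Wnt10a and Wif1. Wnt10a, Wnt5a and Sfrp1 are thus on both lists. Without the 4 footpad arrays 7 genes differed in response (15.9%, where 9.37% of all probe sets did), 2 among tissues before (4.55%, where 6.12% did) and 2 after (4.55%, where 7.01% did).

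**Figure D4:**
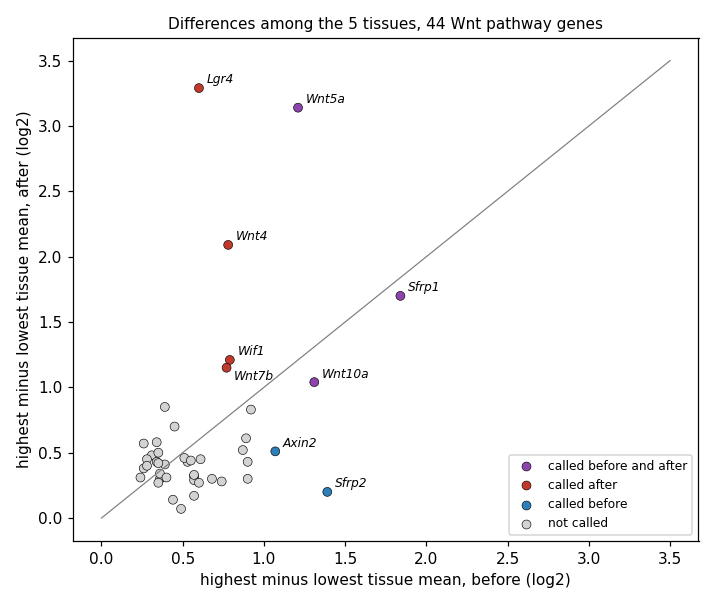
Largest difference between the means of 2 tissues before (horizontal axis) and after transplantation (vertical axis), both on the log2 scale, for the 44 genes, colored by whether limma's F test among tissues passed with a difference over 1 (the line marks equal differences). Lgr4 moves from 0.60 to 3.29, Wnt5a from 1.21 to 3.14 and Wnt4 from 0.78 to 2.09, while Sfrp2 goes from 1.39 to 0.20 and Axin2 from 1.07 to 0.51.

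Among the next genes by the F test before, Wnt7b (range 0.77, adjusted p = 0.00011) was highest in trachea and lowest in footpad, and Wnt4 (0.78, adjusted p = 0.000167) was highest in esophagus and lowest in oral mucosa. Wnt6 (0.92, adjusted p = 0.000494) was highest in oral mucosa, whereas Wnt3 (0.74, adjusted p = 0.00483) and Fzd9 (0.90, adjusted p = 0.00589) were highest in footpad, and all 3 were lowest in vagina. After transplantation Wnt6 (0.83, adjusted p = 0.00226) was highest in esophagus and lowest in trachea. None of these ranges reached 1.

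Set against the mean of the other 4 tissues before transplantation, Sfrp1 marked oral mucosa (higher, 1 of 44 genes, where 1.55% of all probe sets were) and footpad (lower, 1 of 44, where 1.6% were), and Sfrp2 marked footpad (higher by 1.16 ± 0.12, adjusted p = 9.9e-06, where 0.558% were). After transplantation Wnt4 and Wnt5a were lower in footpad (2 of 44, where 1.42% were), at −1.89 ± 0.08 and −2.60 ± 0.09, and Lgr4 and Wif1 were higher there (2 of 44, where 2.32% were), by 3.05 ± 0.13 and 1.10 ± 0.13. Wnt5a was higher in oral mucosa (1.33 ± 0.09, where 0.777% were) and in esophagus (1.28 ± 0.09, where 0.541% were), and Sfrp1 in trachea (where 0.907% were). Lgr4 was lower in esophagus (−1.06 ± 0.13, where 0.657% were). As above, the contrasts of Wnt5a and Lgr4 outside footpad take in the footpad values. For the responses, 5 genes set footpad apart from the other 4 tissues (11.4%, where 8.23% of all probe sets did). In the same contrast 2 passed in trachea (2.43%), 1 in oral mucosa (4.66%), 1 in esophagus (1.35%) and 0 in vagina (1.66%). Those in oral mucosa and esophagus were Wnt5a, and those in trachea were Sfrp1 and Lgr4. Here too the contrasts of Wnt5a and Lgr4 take in the footpad response. Lgr4 in trachea stood at −1.01 ± 0.19 in this contrast, while its own change was −0.16.

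Other genes of the pathway were counted from 4 lists, whose counts stand beside the shares of all probe sets that passed, namely 3.65% in oral mucosa, 2.21% in vagina, 1.07% in esophagus, 6.92% in footpad and 1.38% in trachea. Of 22 genes for Wnt secretion and for other regulators at the membrane, none rose, and 2 fell in each of oral mucosa, vagina and footpad. Porcn, the enzyme that attaches the lipid to Wnt ligands, fell by 1.41 in oral mucosa and 1.21 in vagina, and Wls, which carries the ligands to the surface, fell by 1.18 in oral mucosa. Wnt7b passed both thresholds in these 2 tissues and in footpad, and was also lower in trachea (−0.88) and esophagus (−0.26). Any link of Porcn or Wls to Wnt7b was not tested. Footpad had Porcn at 7.66 before and 8.36 after (0.69 ± 0.11, adjusted p = 0.000134). The glypican Gpc4 fell by 1.34 in vagina. In footpad Rnf43, which removes Frizzled from the surface and is opposed by R-spondins, fell by 1.09, and Tspan12, a Frizzled partner, by 1.10.

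Of 33 intracellular genes of the β-catenin branch, only Tle4 passed, a co-repressor that binds TCF/LEF factors. It fell from 7.93 to 4.82 in footpad (−3.11 ± 0.13, adjusted p = 5.55e-10) and from 7.29 to 5.90 in vagina (−1.39 ± 0.13). β-catenin itself (Ctnnb1) changed by −0.37 to 0.16, and Lef1, with group means of 4.67 to 5.07, by 0.00 to 0.20. The median change of the 33 genes was −0.20 in oral mucosa, −0.26 in vagina, −0.19 in esophagus, 0 in footpad and −0.18 in trachea. For all probe sets it was 0.05, 0.06, −0.01, −0.03 and 0.01. Of 24 genes of the planar polarity and calcium branch, on which Wnt5a is known to act, 2 passed, both in footpad, where Prickle2 rose by 1.65 and Celsr2 by 1.17.

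Of 32 known β-catenin targets, footpad had 3 higher and 5 lower, oral mucosa 1 and 2, vagina 0 and 2, esophagus 1 and 1, and trachea 0 and 1. Over all probe sets 4.28% were higher and 2.64% lower in footpad, 1.5% and 2.15% in oral mucosa, 0.534% and 1.68% in vagina, 0.517% and 0.558% in esophagus, and 0.496% and 0.883% in trachea. The growth factor gene Fgf9 fell in oral mucosa (−2.50), vagina (−1.92) and esophagus (−1.45), the 3 tissues in which Sfrp1 passed both thresholds. Fgf9 moved by 0.15 in footpad, where Sfrp1 changed by −0.57, and by −0.18 in trachea. Fgf9 was singled out after the values were seen, and any link to Sfrp1 was not tested. Vcan, a matrix proteoglycan also made by fibroblasts, fell by 3.45 in footpad, 1.91 in vagina and 1.53 in trachea, the 3 tissues in which fibroblast markers fell. The part of fibroblasts in the fall of Vcan was not tested. In footpad Jun (1.39), Prdm1 (1.41) and Ephb3 (1.16) rose, and Twist1, Efnb1, Rnf43 and Fosl1 fell by 1.45, 1.15, 1.09 and 1.02. Prdm1 fell by 1.23 and Twist1, also counted among the fibroblast markers, rose by 1.37 in oral mucosa, and Tbx3 rose by 1.47 in esophagus. The median change of this list was −0.11 to 0.04 over the 5 tissues, beside −0.03 to 0.06 for all probe sets.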

How the data were processed

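The deposited log2 values come from the authors' run of RMA in Affymetrix Expression Console, 1 per array for each probe set, and were used unchanged. RMA corrects the background, normalizes by quantiles and summarizes probes by median polish. Neither the versions nor the build of the annotation are stated, nor which arrays were run together. Values ran from 1.52 to 14.0, array medians from 5.31 to 5.55, and duplicates correlated at 0.991 to 0.996. The number of arrays limits the precision.

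Names came from the platform annotation, in which 15310 probe sets had exactly 1 symbol, and all 44 members were found in RefSeq (GRCr8). limma 3.58.1 (R 4.3.3, lmFit and eBayes) was fitted to all probe sets with 10 groups as levels (10 residual, 3.64 prior degrees of freedom), with Benjamini-Hochberg adjustment over all probe sets within each comparison. The mean response was fitted to group means with tissue as a block (4 residual, 2.68 prior degrees of freedom). Scripts were tested on simulated data.

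By rule, array values were given for Wnt5a, Wnt10a, Sfrp1, Lgr4 and genes passing in 2 or more tissues, and changes or group means for genes passing in any tissue and for the 10 smallest F-test p-values at each stage. Other values in the text were added after they were seen. The members, lists and thresholds were chosen with earlier results of these data known. Alternatives changed the centering, normalization, dim filter, variance model, replicate block, probe sets adjusted over, fold threshold, tissues and arrays.

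Cells of whisker and thymus were not used here. Titles carry Roman numerals, in which the study writes passages. They differ between the stages in all tissues but vagina, and the effect of passage was not tested.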

Additional observations from a re-analysis of the deposited data

Results flagged for a closer look

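The response to transplantation differed between tissues, by limma's F test over the differences of after minus before, for 11 genes. The adjusted p was 1.84e-09 for Wnt5a, 9.48e-08 for Lgr4 and 1.38e-07 for Wnt4, 3 genes whose change was far larger in footpad than elsewhere. It was 2.16e-06 for Wnt10a, which rose in vagina and footpad, 6.13e-05 for Wnt7b, which was lower after in all 5 tissues by different amounts, and 0.000145 for Sfrp1, whose arrays overlapped between the stages in trachea. For Axin2 it was 0.000641, with a largest difference of response of 1.41 between oral mucosa and vagina. For Sfrp2 it was 0.00109 and for Wif1 0.00414, which both changed in footpad, with Sfrp2 on average below and Wif1 just above the 40th percentile of all probe sets. For Tcf7 it was 0.00985 and for Wnt6 0.0107, with largest differences of 1.04 and 1.02. Without the 4 footpad arrays 7 of these genes still passed, namely Wnt10a (adjusted p = 0.000161), Wnt7b (0.000216), Sfrp1 (0.00054), Wnt5a (0.000971), Tcf7 (0.00156), Axin2 (0.00239) and Wnt6 (0.0183).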

How the results depend on the processing

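Of 13 changes that passed in a tissue, none reversed under any alternative, and Sfrp2, left out by the dim filter, was the only one not tested under each. Wnt10a in vagina lost its pass with arrays centered on their median (0.98) and without vagina after replicate 2 (0.94), and Wif1 in footpad without footpad before replicate 1 (0.95). With a fold over 1.5 in place of 2 the counts were 5 for oral mucosa, 3 for trachea, 19 for differing responses, 14 and 11 for differences among tissues before and after, and 14 and 20 for tissue marks before and after (3 and 8 at a fold over 2). Without the 4 footpad arrays 7 genes differed in response, 2 among tissues before and 2 after, and 0 and 3 tissue marks were left. No share of all probe sets was counted at a fold over 1.5, nor for the tissue marks without footpad. Those counts therefore have no background beside them. The trachea count of 0 became 1 without trachea after replicate 2, when Wnt5a reached −1.04. Leaving out 1 array at a time gave 2 to 3 genes in oral mucosa, 2 to 4 in vagina, 1 in esophagus, 6 to 8 in footpad, 0 to 1 in trachea, 10 to 12 for differing responses, 4 to 7 before and 6 to 7 after among tissues, 3 and 8 tissue marks, and 0 for the mean response. Other alternatives kept each count within 1.5 times. The causes were not tested.

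The replicate numbers were not taken to pair the samples. Over 45 pairs of groups the correlation of same-numbered deviations ran from −0.409 to 0.399, with a median of 0.0018, and 3 were over 0.1. Between before and after in the same tissue it ran from −0.15 to 0.0277. Negative correlations were not counted, and a factor shared by some of the arrays was not tested. With the replicate block the counts were 2 in oral mucosa, 3 in vagina, 1 in esophagus, 7 in footpad, 0 in trachea, 11 for differing responses, 5 and 7 among tissues before and after, and 3 and 8 tissue marks, as without it. The block could not be applied to the mean response, which uses group means. Each gene had 1 probe set, so the choice of probe set could not be varied. Signal over background is not known, which limits what can be said of genes at low values.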
